A study of Mus musculus with 8 samples.

Results

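The 33 genes described here are known from B cells and were measured in RNA from mouse peritoneal macrophage preparations. They were chosen by name, as a list of antigen receptor chains, surface receptors, signalling proteins, transcription factors and cytokine receptors of B cells, and a locus of the expression table was a member where its symbol was on the list. All 33 were found among 23735 loci. Of these genes, 21 were listed for B cells alone, and 12 are also known from other cell types: Btk, Blnk, Cd72 and Pou2f2 from myeloid cells, Cd5, Btla, Ltb, Bach2, Faim3 and Cxcr5 from T cells, and Spib and Bcl11a from dendritic cells. The study compared cells of floxed controls (MED1fl/fl, named WT in the labels) with cells of macrophage MED1 knockouts (MED1ΔMac, called KO here), each untreated or given lipopolysaccharide (LPS, a bacterial cell wall component) at 50 ng/mL for 6 h. All mice were C57BL/6J and 8 weeks old. Each of the 4 groups had 2 libraries, lettered A and B. Not given in the sources used here are the promoter that drove Cre, the number of animals behind a library, the way the cells were purified and the meaning of the letters. A p-value below measures only the spread between these libraries, which may be technical. In bulk RNA, fewer cells of a type and less RNA per cell cannot be told apart.

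B cells recognise antigen through a membrane immunoglobulin, whose signal enters the cell through the paired chains CD79A and CD79B and is passed on by Src-family and Tec-family kinases and adaptor proteins. The transcription factors EBF1 and PAX5 establish and hold the identity of the lineage. The peritoneal cavity of mice normally holds B cells beside its macrophages, both conventional follicular-type cells and the self-renewing B-1 lineage, so washed-out peritoneal cells contain them unless they are removed.

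Libraries are named by group and letter. Levels are given in RPKM, a read count scaled by transcript length and library size, and can therefore be compared between genes of different length. Mapped reads per library were estimated at 6.93 to 14.26 M. The untreated KO libraries differed from each other: over the loci tested, on the log2 scale, KO A correlated at r = 0.98 with WT A, 0.965 with WT B and 0.93 with KO B, and KO B at 0.941 with WT A and 0.949 with WT B. Med1 itself lay between 17.6 and 24.8 RPKM in all 8 libraries with overlapping genotypes, and was lowest in KO A and 23.4 RPKM in KO B. The macrophage gene Lyz2 was at 8502 RPKM in KO A and 15001 in KO B, below the 28588 and 32317 of untreated WT. Whether the Med1 reads come from the deleted exons was not tested. For the members, results that rest on KO A or KO B are given without it as well. The counts of other gene lists were not repeated without KO A or KO B. KO below means the libraries so labelled. Of 19 macrophage markers found, at least 18 reached 1 RPKM in every library.

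The results below turn on 5 of the genes, and their promoters are shown for that reason: Cd79a as the reference for B cell transcript in a library, Blnk as the gene that fell with LPS, and Vpreb3, Ltb and Fcrl1 as the genes that differed between libraries of letter A and letter B. The sequences are the 250 bases before the transcript start from RefSeq (GRCm38.p6), 5′ to 3′ on the strand of the gene. Capitals mark matches, on either strand, to the octamer ATGCAAAT bound by Oct factors, or to GAGGAA, a core sequence of the Ets factor PU.1. None of the 5 held CCCNNGGG, a pattern of EBF1.
Cd79a: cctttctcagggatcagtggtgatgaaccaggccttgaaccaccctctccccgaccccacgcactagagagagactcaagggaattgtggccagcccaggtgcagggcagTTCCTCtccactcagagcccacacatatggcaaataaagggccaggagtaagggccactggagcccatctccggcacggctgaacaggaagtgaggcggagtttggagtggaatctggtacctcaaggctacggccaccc
Blnk: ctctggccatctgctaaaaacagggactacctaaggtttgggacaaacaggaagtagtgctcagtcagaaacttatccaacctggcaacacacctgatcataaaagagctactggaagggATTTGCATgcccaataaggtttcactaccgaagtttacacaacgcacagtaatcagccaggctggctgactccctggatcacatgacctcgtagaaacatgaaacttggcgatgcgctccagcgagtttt
Vpreb3: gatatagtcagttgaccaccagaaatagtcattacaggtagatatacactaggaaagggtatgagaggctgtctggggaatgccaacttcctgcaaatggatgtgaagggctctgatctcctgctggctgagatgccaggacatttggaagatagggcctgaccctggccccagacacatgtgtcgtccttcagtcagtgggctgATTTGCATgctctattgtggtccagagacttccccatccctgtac
Ltb: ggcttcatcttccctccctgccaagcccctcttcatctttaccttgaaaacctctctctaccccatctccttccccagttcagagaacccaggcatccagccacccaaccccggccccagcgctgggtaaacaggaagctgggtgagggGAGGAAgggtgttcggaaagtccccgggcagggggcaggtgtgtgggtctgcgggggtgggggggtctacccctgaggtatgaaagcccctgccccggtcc
Fcrl1: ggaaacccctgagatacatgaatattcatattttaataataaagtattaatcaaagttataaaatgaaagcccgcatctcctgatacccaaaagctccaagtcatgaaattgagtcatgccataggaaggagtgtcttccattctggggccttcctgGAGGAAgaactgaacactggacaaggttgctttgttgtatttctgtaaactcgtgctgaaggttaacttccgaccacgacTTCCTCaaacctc
These windows lie at chr7:24897247-24897496 on the plus strand for Cd79a, chr19:40994222-40994471 on the minus strand for Blnk and chr10:75948050-75948299 on the plus strand for Vpreb3. The window of Ltb is chr17:35194257-35194506 on the plus strand, and that of Fcrl1 is chr3:87376137-87376386 on the plus strand. Vpreb3 and Blnk each hold 1 octamer, Cd79a and Ltb 1 PU.1 core, and Fcrl1 2. Of the 33 genes, 28 had such a window. Among these 28, the octamer was found in 3 (Vpreb3, Blnk and Mef2b), against 1.81% of 27025 mouse genes, the EBF1 pattern in 3 (Bank1, Cd22 and Spib), against 13.4%, and the PU.1 core in 11, against 25.9%. A match is only a run of letters, and binding was not measured.

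The chains of the antigen receptor were among the most abundant members. Cd79a (mm9 chromosome 7, 25682400 to 25687216, plus strand) was at 169.99 and 157 RPKM in untreated WT cells, 148 and 114 in LPS-treated WT cells, 151 and 390.3 in untreated KO cells, and 332 and 241 in LPS-treated KO cells (libraries A and B in that order, here and below). Cd79b (chromosome 11, 106172655 to 106176076, minus strand) was at 194 and 179 RPKM in untreated WT cells, 178 and 88.5 in LPS-treated WT cells, 175 and 496 in untreated KO cells, and 360.3 and 237 in LPS-treated KO cells. For both, KO B, KO LPS A and KO LPS B were the 3 highest libraries, KO A lay with the WT libraries, and the lowest was WT LPS B. Vpreb3 (chromosome 10, 75405802 to 75412402, plus strand), which encodes a protein bound to immunoglobulin chains inside B lineage cells, did not follow them, with 0.26 and 5.64 RPKM in untreated WT cells, 0.613 and 4.27 in LPS-treated WT cells, 0 and 10.6 in untreated KO cells, and 0.443 and 10.3 in LPS-treated KO cells. It was high in all 4 B libraries and near 0 in all 4 A libraries. Read numbers were inferred by taking the smallest nonzero value after scaling for depth, that of WT A, as 1 read. On that assumption the steps correspond to 1, 3, 0 and 2 reads in WT A, WT LPS A, KO A and KO LPS A. The B libraries of the same groups held 26, 13, 35 and 38 reads. On the same assumption, the KO A value allows up to 0.479 RPKM, the level that 3 reads would give there. That limit covers counting error only.

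Surface proteins made up the largest group. Ms4a1 (chromosome 19, 11324654 to 11340669, minus strand), which encodes the B cell antigen CD20, had the highest mean of all 33 genes. It reached 156 and 113 RPKM in untreated WT cells, 193 and 129.5 in LPS-treated WT cells, 147 and 514 in untreated KO cells, and 501 and 324 in LPS-treated KO cells. Cd22, an inhibitory co-receptor that binds sialic acid, was at 29.8 and 31.5 RPKM in untreated WT cells, 32.1 and 21.03 in LPS-treated WT cells, 26.8 and 77.4 in untreated KO cells, and 56.2 and 53.5 in LPS-treated KO cells. Siglecg, a second inhibitory receptor of the Siglec family, was at 22.6 and 21.5 RPKM in untreated WT cells, 19.9 and 17.1 in LPS-treated WT cells, 19.7 and 71.9 in untreated KO cells, and 43.1 and 35.5 in LPS-treated KO cells. In these 3 genes KO B, KO LPS A and KO LPS B exceeded every other library, with KO B highest. Ly6d, a membrane-anchored protein that marks commitment to the B lineage, was at 111 and 96.6 RPKM in untreated WT cells, 76.4 and 69.1 in LPS-treated WT cells, 86.4 and 236 in untreated KO cells, and 247 and 173 in LPS-treated KO cells, with KO LPS A the highest.

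The Fc receptor-like genes did not share one pattern. Fcrla, whose protein stays inside the cell, was at 28.9 and 35.96 RPKM in untreated WT cells, 27.9 and 30.8 in LPS-treated WT cells, 28.8 and 109.6 in untreated KO cells, and 57.7 and 76.2 in LPS-treated KO cells. Fcrl5, which is carried by marginal zone and B-1 cells, was at 7.84 and 3.87 RPKM in untreated WT cells, 6.98 and 6.05 in LPS-treated WT cells, 6.92 and 8.15 in untreated KO cells, and 14.5 and 13.3 in LPS-treated KO cells. Fcrl1 (chromosome 3, 87180309 to 87196055, plus strand), an activating co-receptor, was at 7.54 and 17.6 RPKM in untreated WT cells, 8.45 and 20.5 in LPS-treated WT cells, 8.74 and 35.1 in untreated KO cells, and 17.1 and 36.2 in LPS-treated KO cells. Fcrla had its 3 highest values in KO B and both KO LPS libraries, as Fcrl5 did, whereas for Fcrl1 the 4 B libraries lay above the 4 A libraries, from 17.6 against at most 17.1 RPKM. Faim3, the receptor for the Fc part of IgM, was at 30.2 and 54.2 RPKM in untreated WT cells, 17.1 and 24.7 in LPS-treated WT cells, 32.6 and 130.1 in untreated KO cells, and 32.4 and 52.1 in LPS-treated KO cells. Its highest value by far was that of KO B, and WT B came next.

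CD21 and CD23 are carried by follicular-type B cells and are low on B-1 cells. Cr2, which encodes the complement receptor CD21, was at 0.571 and 2.31 RPKM in untreated WT cells, 0.954 and 2.69 in LPS-treated WT cells, 0.287 and 11.3 in untreated KO cells, and 0.665 and 6.29 in LPS-treated KO cells. Fcer2a, which encodes the low-affinity IgE receptor CD23, was at 0.306 and 4.39 RPKM in untreated WT cells, 0.763 and 1.63 in LPS-treated WT cells, 0.333 and 10.9 in untreated KO cells, and 0.174 and 4.48 in LPS-treated KO cells. Each was under 1 RPKM in all 4 A libraries and above it in all 4 B libraries, so that the letters did not overlap while the genotypes and treatments did. Cd5, found on T cells and on B-1a cells, was at 0.946 and 2.47 RPKM in untreated WT cells, 0.614 and 0.986 in LPS-treated WT cells, 0.924 and 5.06 in untreated KO cells, and 1.28 and 3.199 in LPS-treated KO cells. Btla, an inhibitory receptor of lymphocytes, was at 6.203 and 10.3 RPKM in untreated WT cells, 6.64 and 5.07 in LPS-treated WT cells, 5.97 and 27.9 in untreated KO cells, and 8.201 and 12.1 in LPS-treated KO cells. Cd72, an inhibitory co-receptor, was at 12.2 and 10.1 RPKM in untreated WT cells, 22.98 and 8.39 in LPS-treated WT cells, 10.8 and 17.3 in untreated KO cells, and 7.77 and 19.04 in LPS-treated KO cells. Cd5 and Btla had KO B as the highest library and KO LPS B next, but Cd72 was highest in WT LPS A and its groups overlapped throughout. An exon of Cd72 overlaps the gene Tesk1 on the opposite strand, and since no source used here gives the strandedness of the libraries, reads of the pair may not be separable.

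Among signalling proteins, the kinase Blk followed the receptor chains. Blk was at 21.3 and 23.1 RPKM in untreated WT cells, 13.5 and 11.7 in LPS-treated WT cells, 21.03 and 62.98 in untreated KO cells, and 30.9 and 26.2 in LPS-treated KO cells. Bank1, a scaffold for the receptor's kinases, was at 30.8 and 24.9 RPKM in untreated WT cells, 33.4 and 28.1 in LPS-treated WT cells, 28.9 and 94.4 in untreated KO cells, and 79.4 and 70.05 in LPS-treated KO cells. Ralgps2, an exchange factor for Ral GTPases, was at 8.198 and 8.76 RPKM in untreated WT cells, 9.71 and 6.17 in LPS-treated WT cells, 7.82 and 28.5 in untreated KO cells, and 18.99 and 15.5 in LPS-treated KO cells. KO B was the highest library for all 3, and both KO LPS libraries came next. Blnk (chromosome 19, 41003417 to 41069025, minus strand), the adaptor that joins the kinase Syk to phospholipase C gamma, was at 52.5 and 38.5 RPKM in untreated WT cells, 18.5 and 14.1 in LPS-treated WT cells, 50.99 and 63.2 in untreated KO cells, and 43.1 and 32.5 in LPS-treated KO cells. Btk, the Tec-family kinase mutated in X-linked agammaglobulinaemia, was at 53.9 and 51.3 RPKM in untreated WT cells, 52.4 and 42.7 in LPS-treated WT cells, 51.5 and 65.9 in untreated KO cells, and 47.1 and 41.8 in LPS-treated KO cells. Btk varied least of all members, with its highest value 1.58 times its lowest, and in both genes KO B was highest and WT A second. Both are also expressed in myeloid cells.

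Pax5 and Ebf1, the factors that define the lineage, were at lower levels than the receptor chains in every library. Pax5 was at 6.61 and 10.01 RPKM in untreated WT cells, 5.86 and 9.67 in LPS-treated WT cells, 7.68 and 28.02 in untreated KO cells, and 16.3 and 21.5 in LPS-treated KO cells. Ebf1 was at 3.72 and 4.39 RPKM in untreated WT cells, 4.29 and 3.74 in LPS-treated WT cells, 3.803 and 13.99 in untreated KO cells, and 8.22 and 9.85 in LPS-treated KO cells. Bcl11a, a zinc finger factor of lymphoid development, was at 3.44 and 4.64 RPKM in untreated WT cells, 4.93 and 4.68 in LPS-treated WT cells, 3.56 and 19.8 in untreated KO cells, and 12.4 and 12.6 in LPS-treated KO cells. In these 3 genes KO B was highest, followed by KO LPS B and then KO LPS A, and the other 5 libraries lay below. Pou2af1, a co-activator that works with Oct factors at octamer sites, was at 56.2 and 32.999 RPKM in untreated WT cells, 41.4 and 27.7 in LPS-treated WT cells, 55.3 and 102 in untreated KO cells, and 117 and 71.7 in LPS-treated KO cells. Pou2f2, which encodes the factor Oct-2, was at 14.9 and 12.8 RPKM in untreated WT cells, 19.2 and 16.3 in LPS-treated WT cells, 12.2 and 29.9 in untreated KO cells, and 24.02 and 18.7 in LPS-treated KO cells. Spib, an Ets factor related to PU.1, was at 20.6 and 26.7 RPKM in untreated WT cells, 21.2 and 16.8 in LPS-treated WT cells, 20.1 and 86.5 in untreated KO cells, and 46.8 and 44.3 in LPS-treated KO cells. Pou2af1 and Spib had the same 3 highest libraries as Cd79a, while in Pou2f2 WT LPS A exceeded KO LPS B.

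Bach2, a repressor that restrains plasma cell differentiation, was at 2.43 and 2.52 RPKM in untreated WT cells, 2.14 and 2.97 in LPS-treated WT cells, 2.77 and 6.25 in untreated KO cells, and 3.38 and 4.41 in LPS-treated KO cells. It was the only member whose untreated KO libraries both exceeded both untreated WT libraries. Mef2b (chromosome 8, 72676677 to 72691387, plus strand), a MADS-box factor of germinal centre B cells, was at 2.62 and 3.05 RPKM in untreated WT cells, 1.47 and 2.61 in LPS-treated WT cells, 4.26 and 2.94 in untreated KO cells, and 11.9 and 7.14 in LPS-treated KO cells. Both KO LPS libraries were higher than the other 6, and KO B was not among the 3 highest. Exons of Mef2b overlap the gene 2310045N01Rik on the same strand, so its value may hold reads of that gene. Exons of Pax5, Bach2 and Bcl11a overlap genes on the opposite strand (Gm12462, BC024582 and 4930538E20Rik).

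Of the cytokine and chemokine genes, Tnfrsf13c encodes the receptor for the B cell survival factor BAFF. It was at 7.44 and 11.7 RPKM in untreated WT cells, 8.17 and 8.34 in LPS-treated WT cells, 6.56 and 29.7 in untreated KO cells, and 12.4 and 22.1 in LPS-treated KO cells. Tnfrsf13b, the related receptor TACI, was at 6.06 and 7.13 RPKM in untreated WT cells, 5.82 and 4.08 in LPS-treated WT cells, 4.78 and 14.3 in untreated KO cells, and 7.45 and 7.13 in LPS-treated KO cells. Cxcr5, the receptor that brings B cells to follicles, was at 14.1 and 15.9 RPKM in untreated WT cells, 9.97 and 18.9 in LPS-treated WT cells, 13.3 and 42.5 in untreated KO cells, and 27.3 and 35.01 in LPS-treated KO cells. These 3 receptors had the same 3 highest libraries as Cd79a, although for Tnfrsf13b WT B was level with KO LPS B to the digits shown. Ltb (chromosome 17, 35331384 to 35333265, plus strand), the membrane anchor of lymphotoxin, was at 5.58 and 24.5 RPKM in untreated WT cells, 5.96 and 16.05 in LPS-treated WT cells, 7.23 and 55.5 in untreated KO cells, and 10.7 and 32.9 in LPS-treated KO cells. Like Vpreb3, Ltb was higher in each of the 4 B libraries than in any A library.

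**Figure D1:**
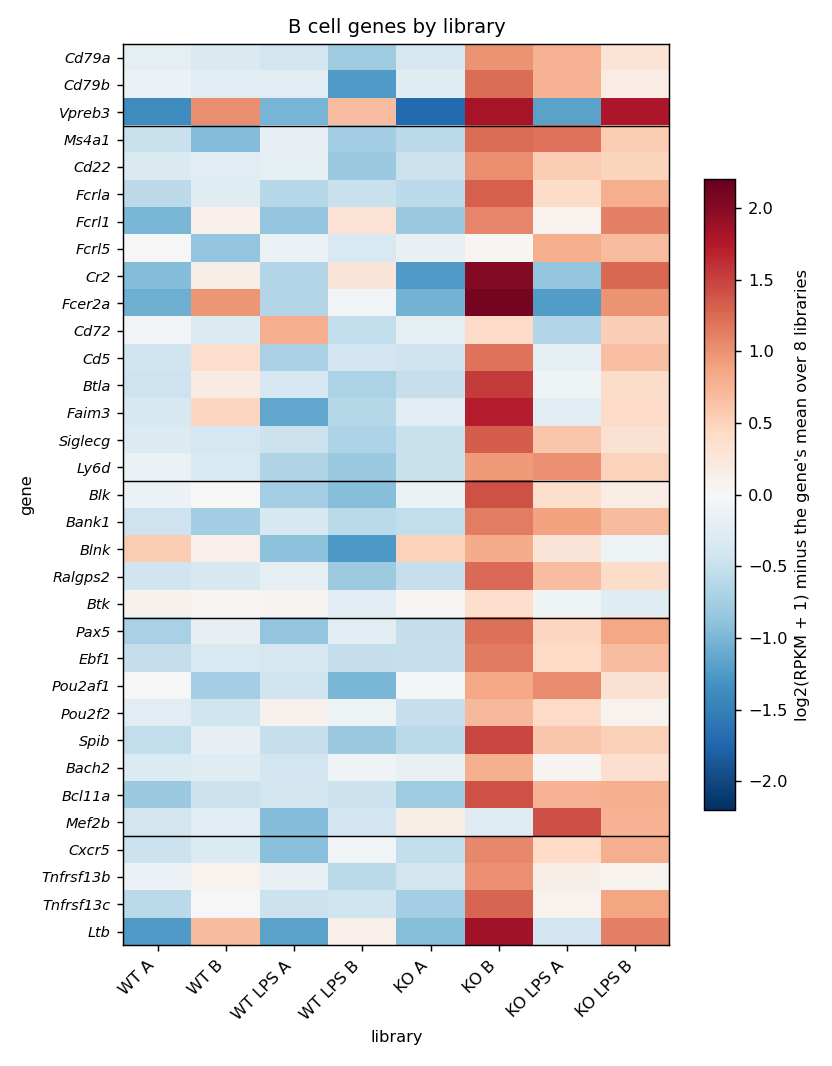
Level of each of the 33 genes (rows, grouped by role, separated by lines) in each of the 8 libraries (columns), as log2(RPKM + 1) minus the gene's mean over the libraries. Most rows are red in KO B, KO LPS A and KO LPS B, and Vpreb3, Fcrl1, Cr2, Fcer2a and Ltb are higher in every B library than in any A library.

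The levels over libraries can be set side by side. By mean over the 8 libraries the order began with Ms4a1 (259.7 RPKM), Cd79b (238 RPKM), Cd79a (213 RPKM) and Ly6d (137 RPKM), and ended with Bach2 (3.36 RPKM), Cr2 (3.14 RPKM), Fcer2a (2.87 RPKM) and Cd5 (1.93 RPKM). The ranges over libraries of neighbours in this order overlapped widely. For 27 of 33 genes KO B was the highest library (81.8%, against 35.2% of all 11272 loci tested), and for 20 of 33 the 3 highest were KO B, KO LPS A and KO LPS B (60.6%, against 4.06% of loci). This order of libraries was chosen after the values were seen and is given as a description. The 13 genes outside it were Fcrl1, Cr2, Blnk, Fcer2a, Pou2f2, Vpreb3, Cd72, Cd5, Btla, Ltb, Faim3, Btk and Mef2b. Over the 29 genes with at least 1 RPKM in WT A, the median ratio to WT A was 1.07 in WT B, 0.963 in WT LPS A, 0.817 in WT LPS B and 0.955 in KO A. It was 3.02 in KO B, 1.92 in KO LPS A and 1.82 in KO LPS B. The 21 genes listed for B cells alone summed to 607 to 871 RPKM in the 4 WT libraries and KO A, and to 2348 in KO B, 1934 in KO LPS A and 1463 in KO LPS B. That sum was 0.108% to 0.443% of the RPKM of a library.

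**Figure D2:**
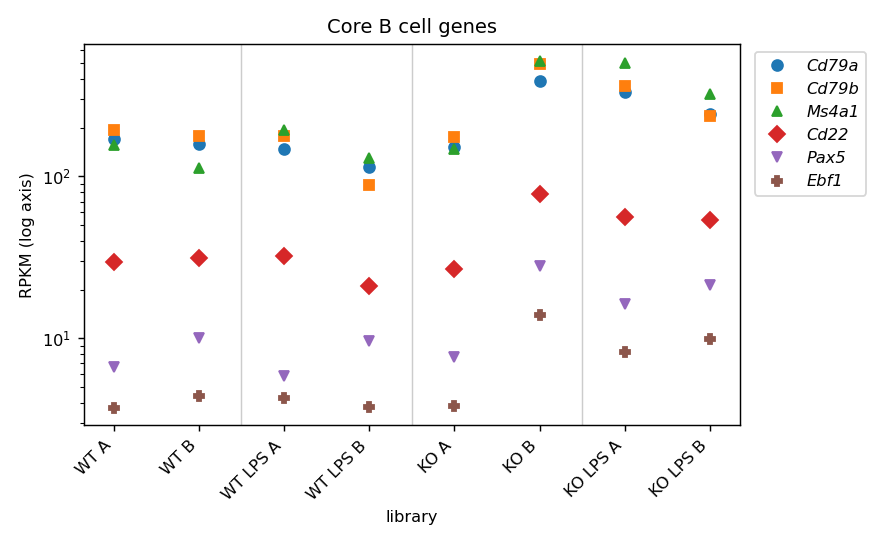
RPKM (log axis) of 6 core B cell genes in the 8 libraries, 1 point per library, with vertical lines between the groups. In each of the 6 genes KO B, KO LPS A and KO LPS B lie above the other 5 libraries, and KO A lies among the WT libraries.

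Whether loss of MED1 in macrophages went with a different level of B cell transcript was asked first over both treatments. Each of the 33 genes had a higher mean in KO (63.8% of all loci did), with a median log2 difference of 0.82, or 1.77-fold, against 0.06 over all loci. These differences and those below are on the scale of log2(RPKM + 1). None passed the test: limma with Benjamini-Hochberg adjustment called 0 of 33 (0.0355% of loci), the smallest adjusted p being 0.999, while 19 of 33 had a higher value at an unadjusted p under 0.05 (2.73% of loci). The largest difference was that of Ms4a1, 1.19 (SE 0.40, adjusted p = 0.999), and Pou2af1 followed at 1.099 (SE 0.29). Cd79a had 0.85 (SE 0.30), Cd22 0.80 (SE 0.32) and Ebf1 0.87 (SE 0.33). The myeloid-shared Btk and Cd72 had the smallest differences, 0.03 and 0.05, and both turned negative with median-ratio scaling. The other myeloid-shared genes, Blnk and Pou2f2, had 0.75 (SE 0.18) and 0.35 (SE 0.27). The median was 0.90 for the 21 genes listed for B cells alone and 0.71 for the 12 shared genes.

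Without LPS the 2 KO libraries disagreed. All 33 genes had a higher mean in KO (64.1% of loci), with a median log2 difference of 0.64, and limma called 0 (0.0266% of loci), with 0 at an unadjusted p under 0.05 (0.834%). Only Bach2 did not overlap between the genotypes (17.8% of loci were higher in KO without overlap). Between the A libraries, 9 genes were higher in KO and the median was -0.06, whereas between the B libraries 32 were higher and the median was 1.28. Without KO B, 7 of 33 genes were higher in KO and the median was -0.15. Without KO A, all 33 were higher and the median was 1.52, with 0 called. Over both treatments, the median was 1.28 without KO A, with 33 higher, and 0.46 without KO B, with 28 higher.

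With LPS both KO libraries lay high. In KO, 31 of 33 genes had a higher mean (58.9% of loci), the exceptions being Cd72 (-0.18) and Btk (-0.09), and the median log2 difference was 1.05. For 25 of 33 both KO LPS libraries exceeded both WT LPS libraries (18.7% of loci), and for none did both lie below (11.7%). The 8 that overlapped were Cd72, Btk, Fcer2a, Pou2f2, Cr2, Vpreb3, Fcrl1 and Ltb. The median was 0.94 between the A libraries and 1.10 between the B libraries. Limma called 0 of 33 (0.00887% of loci), and 9 had an unadjusted p under 0.05 (4.42% of loci in either direction). The smallest p was that of Mef2b, which had 1.78 (SE 0.31, adjusted p = 0.731), followed by Blnk at 1.17 (SE 0.26, adjusted p = 0.909). Ly6d had 1.498 (SE 0.44), Pou2af1 1.41 (SE 0.41) and Ms4a1 1.34 (SE 0.56).

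Markers of other cells were counted in the same comparison. In KO, averaged over treatments, 16 of 16 T cell markers tested had a higher mean (median log2 difference 0.50). So did 8 of 8 class II presentation genes (0.55) and 4 of 9 mast cell markers (-0.14). The mean was also higher for 2 of 3 natural killer cell markers (0.16) and 6 of 19 macrophage markers (-0.18). Over all loci the share was 63.8%. Limma called 0 in each list (the background being 0.0355% of loci). Without LPS, the 21 T cell markers summed to 119 and 88.2 RPKM in the WT libraries and 150.4 and 179.8 in the KO libraries. Much of this was Il7r, at 72.7 and 29.8 RPKM in WT and 106.7 and 19.2 in KO, and without it the sums were 46.2 and 58.4 for WT and 43.8 and 160.6 for KO, with KO A the lowest. With LPS, the sums were 48.4 and 49.2 RPKM for WT and 102 and 118 for KO, or 26.4 and 36.1 against 57.7 and 89.98 without Il7r. Cd3d, a chain of the T cell receptor complex, was listed at 0 in WT A and KO A and reached 6.54 RPKM in KO B. Other chains of that complex were not at 0 in these libraries. Cd3g was at 4.17 RPKM in WT A, 2.26 in KO A and 15.03 in KO B, and Cd3e at 0.842, 0.207 and 5.88. Cd74, the class II invariant chain, which B cells and macrophages both make, was at 733 and 764 RPKM in untreated WT cells, 1123 and 781 in LPS-treated WT cells, 712 and 1929 in untreated KO cells, and 1298 and 1483 in LPS-treated KO cells. The part of these cells in the differences above was not tested, and the counts of these lists were not repeated without KO A or KO B.

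**Figure D3:**
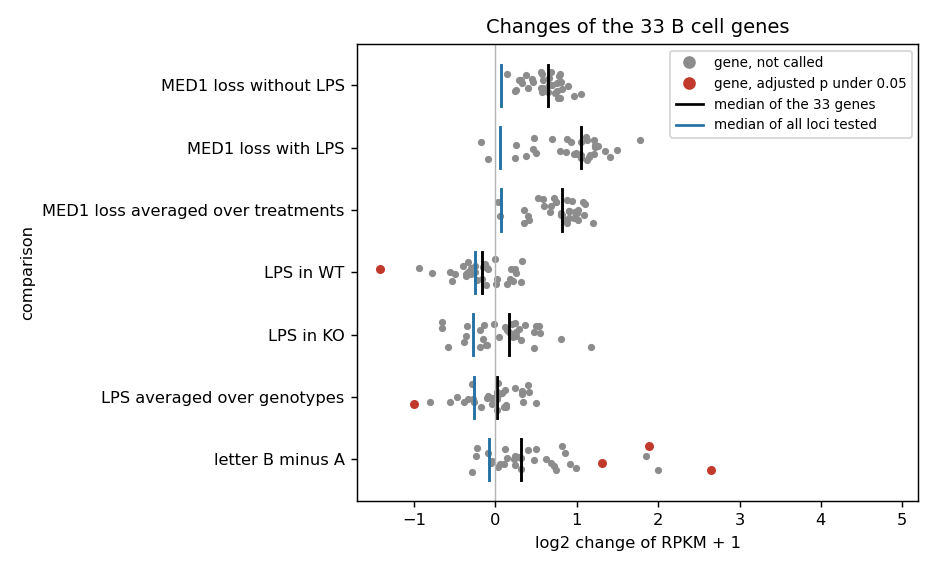
Log2 change of RPKM + 1 for each of the 33 genes (points) in 7 comparisons, with the median of the 33 genes (black line) and of all loci tested (blue line). Red points passed the test in limma: Blnk in 2 LPS comparisons, and Vpreb3, Ltb and Fcrl1 between the letters.

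LPS left the B cell genes as a group without a common direction. In WT 10 of 33 had a higher mean after LPS (31.2% of loci) with a median log2 change of -0.16, against -0.25 for all loci, and with median-ratio scaling, which brings the latter to 0.00, the members' median was 0.10 and 20 of 33 were higher. In KO 20 of 33 had a higher mean (27.9% of loci), with a median of 0.17 against -0.28, and 0.46 with median-ratio scaling. The KO value depended on which untreated library was used: the median was 0.94 between the A libraries and -0.61 between the B libraries, -0.62 without KO A and 0.96 without KO B. Without overlap between treatments, 9 genes were lower in WT (45.9% of loci) and 2, Bcl11a and Pou2f2, were higher (18.2%). In KO 2 were lower without overlap, Blnk and Btk (48% of loci), and 2 were higher, Fcrl5 and Mef2b (15.1%).

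Blnk fell with LPS. In WT its values went from 52.5 and 38.5 to 18.5 and 14.1 RPKM, and the groups did not overlap. The log2 change was -1.42 (SE 0.26, adjusted p = 0.0259) in limma, and it was the only member called in WT (6.31% of loci in either direction, 3.14% downward). That call was lost without WT A (adjusted p = 0.175), WT B (0.0752) or WT LPS B (0.149), and with no filter on low values (0.0531). In KO the values went from 51.0 and 63.2 to 43.1 and 32.5 RPKM, again without overlap, and the change of -0.59 (SE 0.26) did not pass (adjusted p = 0.179). No member was called in KO (6.62% of loci), with 2 at an unadjusted p under 0.05 (29.2%). Averaged over genotypes Blnk fell by 1.005 on the log2 scale (SE 0.18, adjusted p = 0.00975), the only call among the members (30.3% of loci in either direction, 21.8% downward), and it passed with any 1 library left out, with adjusted p-values up to 0.0455. Blnk is made by myeloid cells as well, and 7 of 19 macrophage markers fell in the same comparison, so the cell of origin cannot be told apart.

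With the letter as a block, Faim3 was called beside Blnk, with a log2 change of -0.80 averaged over genotypes (adjusted p = 0.0392 with the block and 0.193 without). With the block, limma called 3006 of 11272 loci downward in that average. Without KO A, limma called 7 members downward in that average (19.3% of loci), which were Faim3, Tnfrsf13b, Blk, Btla, Blnk, Siglecg and Spib. Without KO B it called Bcl11a and Bank1 upward (8.08% of loci) and Blnk downward (15.9%). With median-ratio scaling it called Fcrl5 upward (13.8%) and Blnk downward (13.2%). The members' shares were near or below those of all loci in each of these settings.

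The difference between the LPS responses of KO and WT was called for 0 of 33 genes in limma (0.0355% of loci), with 1 at an unadjusted p under 0.05 (1.63%). That gene was Mef2b. In WT it went from 2.62 and 3.05 to 1.47 and 2.61 RPKM (-0.36, adjusted p = 0.472), and in KO from 4.26 and 2.94 to 11.9 and 7.14 RPKM (1.17, SE 0.31, adjusted p = 0.068). The treatments did not overlap in either genotype, narrowly so in WT, and the directions were opposite. The change in KO was called without WT LPS A (adjusted p = 0.0483) or without WT LPS B (0.0486), when fewer libraries set the variance.

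A second pattern followed the letters, which the labels do not explain. In a fit with group and letter as terms, added after the values were seen, 27 of 33 genes were higher in B (36.2% of loci) with a median log2 difference of 0.32, against -0.08 for all loci. Limma with Benjamini-Hochberg adjustment called 3 upward (0.24% of loci; 0.577% in either direction) and 0 downward (0.337%). Vpreb3 had 2.65 (SE 0.30, adjusted p = 0.0251), Ltb 1.89 (SE 0.25, adjusted p = 0.0337) and Fcrl1 1.31 (SE 0.18, adjusted p = 0.0343). In 5 genes all 4 B libraries exceeded all 4 A libraries (1.3% of loci), and in 0 they all lay below (2.09%). Beside the 3 called genes these were Fcer2a at 2.002 (SE 0.38, adjusted p = 0.0809) and Cr2 at 1.85 (SE 0.39, adjusted p = 0.101). Cd79a, Cd79b and Ms4a1 had differences of 0.10, -0.06 and 0.03. The 3 calls were fragile: none was made with no filter, or without KO LPS B, KO LPS A, KO B or an untreated WT library, Vpreb3 alone was called without either WT LPS library, and Vpreb3 and Ltb without KO A. The differences themselves stayed at 2.36 to 2.97 for Vpreb3, 1.59 to 2.09 for Ltb and 1.12 to 1.40 for Fcrl1 where 1 library was left out. The letters are read here only as labels, and what differed between A and B libraries cannot be told apart from the values.

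The members were also expressed relative to Cd79a, the signalling chain of the antigen receptor. As a percentage of Cd79a in the same library, 13 genes were higher in every B library than in any A library (1.3% of loci tested), 0 were lower (0.248%), and the other 20, Cd79a itself counted among them, overlapped. All loci were divided in this way, and Cd79a itself ranged from 114 to 390 RPKM. Loci that do not follow Cd79a take on its variation, so their share is no like background for the members. Before division, 5 members were higher in every B library than in any A library (1.3% of loci). Vpreb3 stood at 0% to 0.416% in the A libraries and 2.71% to 4.27% in the B libraries. Fcer2a stood at 0.0524% to 0.517% in the A libraries and 1.44% to 2.798% in the B libraries, and Cr2 at 0.19% to 0.647% in the A libraries and 1.47% to 2.91% in the B libraries. Ltb had 3.23% to 4.78% in the A libraries and 13.6% to 15.6% in the B libraries. Pax5 had 3.89% to 5.08% in the A libraries and 6.36% to 8.89% in the B libraries, and Fcrl1 4.44% to 5.78% in the A libraries and 9.004% to 18.1% in the B libraries. The rest of the 13 were Fcrla, Cxcr5, Spib, Tnfrsf13c, Cd5, Faim3 and Siglecg. The gap was narrow for Faim3, with A libraries up to 21.57% and B libraries from 21.59%. It was also narrow for Siglecg (13.47% and 13.63%) and Spib (14.4% and 14.8%). Among the 20 that overlapped, Cd22 stayed between 16.9% and 22.1% of Cd79a over all 8 libraries, and Ly6d between 51.8% and 74.4%. These ratios were not tested.

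**Figure D4:**
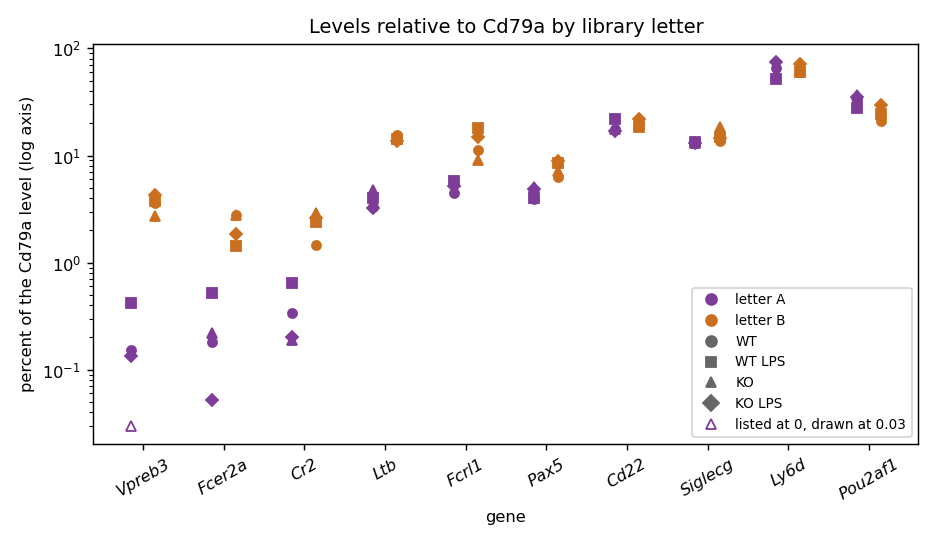
Level of 10 genes as a percentage of Cd79a in the same library (log axis), with A libraries in purple, B libraries in orange and the group given by the marker; an open marker at the bottom stands for a value listed at 0. Vpreb3, Fcer2a, Cr2, Ltb, Fcrl1, Pax5 and, narrowly, Siglecg do not overlap between letters, and Cd22, Ly6d and Pou2af1 do.

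Markers of other cells also differed by letter. Of 9 mast cell markers tested, 9 were higher in B (36.2% of loci), with a median log2 difference of 1.28. Limma called 3 of these mast cell markers, Cpa3, Tpsb2 and Kit, against 0.24% of loci. Their list summed to 6.38 to 111 RPKM in the A libraries and 78.9 to 399.7 in the B libraries. Hdc, which rose with LPS averaged over genotypes (3.74, adjusted p = 0.00553), gave 85.3 of the RPKM in WT LPS A and 310.03 in WT LPS B, and without it the sums were 0.829 to 26.1 in the A libraries and 74.8 to 172.7 in the B libraries, with no overlap. The mast cell tryptase Tpsb2 was listed at 0 in KO A. Of 16 T cell markers tested 13 were higher in B (median 1.18), with 0 called, and the count of 21 T cell markers at 1 RPKM or more was 6 to 7 in the A libraries and 9 to 20 in the B libraries. Natural killer cell markers summed to 0.0872 to 1.47 RPKM in A and 3.499 to 7.999 in B, and Ncr1, which encodes their receptor NKp46, was listed at 0 in all 4 A libraries. Ltb, Faim3 and Cd5 are also T cell genes, while Vpreb3, Cr2 and Fcer2a were listed for B cells alone. The part of these cells in the differences between letters was not tested.

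Further B cell genes were counted in the same comparisons. Of 27 further B cell genes listed, 20 were found by symbol, and the immunoglobulin genes were not analysed here. Cd37, a tetraspanin of mature B cells, was at 234 and 204 RPKM in untreated WT cells, 183 and 149.5 in LPS-treated WT cells, 198 and 357 in untreated KO cells, and 236 and 204 in LPS-treated KO cells. KO B was its highest library and KO LPS A came next. In KO, averaged over treatments, 17 of 20 had a higher mean (63.8% of loci), with a median log2 difference of 0.69. Limma called 0 (0.0355% of loci).

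With LPS 4 of these 20 rose and 1 fell, averaged over genotypes (8.46% and 21.8% of loci). The activation receptor Cd40 rose by 2.98 (SE 0.37, adjusted p = 0.00315), the ectoenzyme Cd38 by 2.74 (SE 0.37, adjusted p = 0.00386) and the early activation antigen Cd69 by 2.69 (SE 0.50, adjusted p = 0.0105). Fcrlb rose by 2.08 (SE 0.30, adjusted p = 0.00488). Cd180, a Toll-like receptor relative that modulates LPS responses in B cells and macrophages, fell by 1.97 on the log2 scale (SE 0.26, adjusted p = 0.00348), from 108 and 96.7 to 26.4 and 14.6 RPKM in WT. Cd40 went from 11.7 and 12.5 to 51.8 and 133 RPKM in WT and from 10.5 and 26.96 to 145 and 208 in KO, with no overlap in either. Macrophages express Cd40, Cd38, Cd69 and Cd180 too, and which cells gave these changes was not tested.

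The signalling genes downstream of the antigen receptor are largely shared with macrophages. All 27 listed were tested. In KO, averaged over treatments, 22 had a higher mean (63.8% of loci), but the median log2 difference of the 27 was 0.22. Limma called 0 (0.0355% of loci). LPS, averaged over genotypes, raised 4 and lowered 6 (8.46% and 21.8% of loci). The paracaspase Malt1 rose by 2.65 (SE 0.21, adjusted p = 0.000928), from 34.7 and 37.7 to 158 and 289 RPKM in WT. The inhibitory Fc receptor Fcgr2b rose by 1.92 (SE 0.40, adjusted p = 0.0145), and Lyn and Bcl10, named after their values were seen, rose by 0.71 and 0.53. The 6 that fell, with log2 changes, were the adaptors Lat2 (-1.15) and Grb2 (-0.77), the kinases Prkcb (-0.74) and Pik3cd (-0.68), the phosphatase Inpp5d (-0.54) and the phospholipase Plcg2 (-0.45). The median of the 27 was -0.45, against -0.26 over all loci.

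Genes of other B cell states gave a mixed picture. Of genes of early B cell stages, Rag2 and Vpreb2 were listed at 0 in all 8 libraries, and Rag1, Dntt, Igll1 and Vpreb1 did not pass 0.232 RPKM in any. The germinal centre genes Bcl6 and S1pr2, the only members of the stage list above the filter, fell with LPS, averaged over genotypes, by log2 changes of -1.28 and -1.304 (adjusted p = 0.02 and 0.0419). Of 8 plasma cell genes tested, 0 were higher in the B libraries (36.2% of loci were), with a median of -0.38. Xbp1 was at 85.1 to 129.5 RPKM and Sdc1 at 2.97 to 22.5 RPKM, while Tnfrsf17, the plasma cell survival receptor, was listed at 0 in all 8. Of 9 plasma cell genes found, 7 or 8 reached 1 RPKM in each library, and which cells made these transcripts was not tested. Of 6 genes known from B-1 cells, 5 had a higher mean in KO over both treatments (63.8% of loci), with a median log2 difference of 0.69. In the B libraries 2 were higher (36.2% of loci, median -0.05). Limma called 0 in either comparison (0.0355% and 0.577% of loci). Among them, Zbtb32 was at 15.5 and 14.5 RPKM in untreated WT cells, 21.3 and 13.2 in LPS-treated WT cells, 16.9 and 37.3 in untreated KO cells, and 40.1 and 28.4 in LPS-treated KO cells, with the same 3 libraries highest as for Cd79a. Bhlhe41, a repressor needed by B-1 cells, was at 30.99 and 37.2 RPKM in untreated WT cells, 19.3 and 6.31 in LPS-treated WT cells, 38.5 and 27.2 in untreated KO cells, and 35.97 and 19.3 in LPS-treated KO cells and was lowest in WT LPS B.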

How the data were processed

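RNA-seq of 8 libraries was analysed from a table of RPKM that the authors deposited, with 24192 lines for 23735 loci (457 lines repeat a locus with the same values and were dropped). Per the submitters' processing notes, bcl2fastq, TopHat2 2.0.14, Cufflinks 2.2.1 and the build mm9 were used. Nothing on the annotation, read pairing or strandedness is given in those notes or the labels. Depth was taken from the spacing of low values in 923 genes with 1 transcript each, and 1 read in a transcript of 1 kb was worth 0.0701 to 0.144 RPKM.

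The 11272 loci that reached 1 RPKM in 2 or more libraries, all 33 members among them, were tested on log2(RPKM + 1) with limma 3.58.1 in R 4.3.3, with 1 mean per group, moderated variances with a trend and Benjamini-Hochberg adjustment over all loci tested. A gene was called at an adjusted p under 0.05. All 8 libraries shared 1 variance estimate with 4 residual degrees of freedom. The procedure was run on simulated data with known changes, independent noise in each library and no difference between letters. That run does not cover the disagreement of KO A and KO B or the shared variation of libraries with the same letter. Tables and figures were made with matplotlib 3.10.9, pandas 2.3.3 and numpy 2.4.6 in Python 3.11.15.

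The letters are those of the sample titles, and no label says that libraries sharing a letter are paired. In the data, deviations from the group means of libraries with the same letter correlated at 0.2 to 0.41 in all 6 pairs of groups. Alternatives were a pseudocount of 0.1, no filter, a filter of 5 RPKM, median-ratio scaling, the letter as a block, variances without a trend, each library left out, and only the 21 members not shared with other cell types. The fit of the letter itself was added after the values were seen. Every member is named, with its value in each library. Of other lists the whole list is counted, and named are up to 5 genes of highest mean and every called gene of the further B cell list; 1 gene that the rule names is not reported here. Genes at 0, Cd3e, Cd3g, and the called mast cell, stage and signalling genes were named after their values were seen. The members and lists were chosen with earlier results of these data known. Gene positions are from GENCODE vM1 on mm9, and promoters from RefSeq on GRCm38.p6, found for 28 of 33 members by symbol. Cd79b, Ms4a1, Blk, Ly6d and Cxcr5 were not matched.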

Additional observations from a re-analysis of the deposited data

Results flagged for a closer look

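Mef2b was singled out because the 2 genotypes moved in opposite directions with LPS. Its log2 change was -0.36 in WT (SE 0.31) and 1.17 in KO (SE 0.31), with no overlap between treatments in either. The difference of the changes was 1.53 (SE 0.44, unadjusted p = 0.0101, adjusted p = 0.99985 in limma), so it did not pass the correction over all loci. In WT the nearest untreated and treated values were 2.62 and 2.61 RPKM. Exons of Mef2b overlap 2310045N01Rik on the same strand, and the share of reads from that gene was not tested.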

How the results depend on the processing

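Counts of called members moved with the settings. For LPS in WT, 1 call became 0 with no filter and among the 21 unshared members, and was 0 to 1 where 1 library was left out. The median of -0.16 there became 0.10 with median-ratio scaling. For LPS in KO the count was 0 to 1 without 1 library. For LPS averaged over genotypes, 1 call became 2 with median-ratio scaling, 2 with the letter as a replicate block, 0 among the unshared members (Blnk is a shared gene), and 1 to 7 without 1 library, the highest without KO A. The block changed no other call. Members at an unadjusted p under 0.05 rose with it from 19 to 25 for MED1 loss over both treatments, and from 9 to 18 with LPS. The share of all loci at that threshold was not counted with the block. For the letters, 3 calls became 0 with no filter, and 0 to 2 without 1 library. Members higher in KO without LPS numbered 7 to 33 without 1 library, the lowest without KO B, and 21 of the 21 unshared members were higher there and over both treatments. The interaction median of 0.30 was -0.58 without KO A and 1.22 without KO B. In each MED1 comparison 0 members were called under every alternative run. Averaged over treatments, the MED1 difference changed sign in 5 genes. It was -0.23 to 1.41 for Cr2, -0.38 to 1.20 for Fcer2a, -0.53 to 1.24 for Vpreb3, -0.29 to 0.39 for Cd72 and -0.060 to 0.11 for Btk where 1 library was left out. It was also -0.023 for Vpreb3 with a pseudocount of 0.1, and -0.028 for Cd72 and -0.060 for Btk with median-ratio scaling. The causes were not tested. Where a library was left out, the lone sample of its group was assumed to vary like the other groups. Depth limits Vpreb3, Cr2, Fcer2a and Cd5, which lie near 1 RPKM or below in the A libraries.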
